A study of Mus musculus with 2 samples.

Results

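Cited1, Cited2, Cited4, Sphkap, Lbh, Mpped2 and Stard10 are 7 genes known from the chambers of the developing heart whose products are not parts of the sarcomere, the contractile unit. They were chosen by symbol, and all 7 were found by gene identifier among 43346 mouse genes in the deposited tables. Total RNA was sequenced from whole hearts of B6NCrl mouse embryos, male and female pooled, at 11.5 days, with no treatment and no engineered allele named in the labels. There is 1 group of 2 libraries, replicate 1 from a pool of 109 embryos and replicate 2 from a separate biosample for which the labels state no number of embryos. Both carry the same donor identifier, so the spread over them may be partly technical. Because the hearts were not divided, the chamber that a transcript came from was not measured. In RNA of a whole organ, fewer cells with a transcript and less of it per cell cannot be told apart.

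The 3 CITED proteins carry no DNA-binding domain of their own. They dock onto the histone acetyltransferases CBP and p300 (genes Crebbp and Ep300) and so bring these to transcription factors, or, as Cited2 does with the hypoxia factor HIF-1α, compete for the docking site. Loss of Cited2 in mice causes defects of septation, of the outflow tract and of left-right patterning, and Cited1 is a marker of chamber myocardium. Sphkap is an A-kinase anchoring protein, which tethers the cyclic AMP-dependent kinase PKA through its type I regulatory subunits, and it was first described as a partner of sphingosine kinase 1. Lbh (limb-bud and heart) encodes a small nuclear regulator of transcription and is a target of Wnt signalling. Mpped2 encodes a metallophosphoesterase that can split cyclic nucleotides, and Stard10 encodes a START-domain protein that carries phospholipids between membranes.

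Hearts gave 34447169 expected counts in mouse genes in replicate 1 and 25261719 in replicate 2, so 3 counts, the limit set for a gene with none, correspond to 0.0871 and 0.119 CPM (counts scaled to the same total in each library). Levels are in TPM, transcript abundance per length on a scale with a fixed sum, and errors are the SD over the 2 libraries. A gene is called detected when neither library has it under 1 TPM, and all 6 cardiomyocyte markers were detected. They ranged from Nkx2-5, the cardiac homeobox gene (115 and 117 TPM), to Actc1, the cardiac actin (9152 and 9633). With 2 libraries an exact sign-flip test cannot go below 0.5, so no p-value is given for a level.

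Cited2 and Cited4 have 1 annotated transcript each, so their share of 100% is fixed by the annotation. Of 2 annotated Lbh transcripts, 1 held all of the TPM. Of 5 for Cited1, 1 held 97.9% in replicate 1 and 97.2% in replicate 2. Where transcription begins was not measured, but each of these genes has 1 leading annotated start. The bases before that start are printed below to show what stands ahead of the most abundant of the 7 genes, Cited1, and of 3 that were far lower. The windows are from RefSeq (GRCm38.p6), 250 bases before its annotated start, 5′ to 3′ on the strand of the gene. The last 10 bases of the Cited2 window lie inside its GENCODE transcript and are left out, which leaves 240. Capitals mark matches to 6 motifs, each searched on both strands. TATAAA is the motif of the TATA-binding protein, and CCAAT is that of the factor NF-Y. The letters GGGCGG are bound by Sp1 and its relatives, AGATAA by the GATA factors of blood and heart, and AGGTGT by T-box factors. ACGTG is the core of the element that hypoxia factors bind.
Cited1 (chrX:102252182-102252431, minus strand): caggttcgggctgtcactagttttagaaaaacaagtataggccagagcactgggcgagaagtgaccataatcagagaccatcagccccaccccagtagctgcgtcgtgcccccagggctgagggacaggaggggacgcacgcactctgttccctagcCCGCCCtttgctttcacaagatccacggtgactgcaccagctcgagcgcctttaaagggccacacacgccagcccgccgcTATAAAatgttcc
Cited2 (chr10:17722978-17723217, plus strand): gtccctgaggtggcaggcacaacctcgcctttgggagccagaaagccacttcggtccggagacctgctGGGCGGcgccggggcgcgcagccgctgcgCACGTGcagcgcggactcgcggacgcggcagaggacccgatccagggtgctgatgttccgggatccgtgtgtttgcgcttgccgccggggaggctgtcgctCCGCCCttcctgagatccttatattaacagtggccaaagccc
Cited4 (chr4:120666313-120666562, plus strand): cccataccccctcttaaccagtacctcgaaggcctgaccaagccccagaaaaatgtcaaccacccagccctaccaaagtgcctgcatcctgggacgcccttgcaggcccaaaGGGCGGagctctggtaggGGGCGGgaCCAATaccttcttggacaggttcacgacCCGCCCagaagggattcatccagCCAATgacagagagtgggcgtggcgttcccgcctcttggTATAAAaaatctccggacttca
Lbh (chr17:72918055-72918304, plus strand): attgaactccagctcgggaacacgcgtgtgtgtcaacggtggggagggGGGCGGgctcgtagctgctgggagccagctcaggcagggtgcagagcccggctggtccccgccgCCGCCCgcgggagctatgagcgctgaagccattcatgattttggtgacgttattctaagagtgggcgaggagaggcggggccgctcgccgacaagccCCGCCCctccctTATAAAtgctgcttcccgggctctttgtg

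A TATAAA stood upstream of Cited1 (from position -13, counted back from the RefSeq start), Cited4 (-22) and Lbh (-29), and in none of the windows of the other 4 genes. For Cited4 the start is 120666563 in RefSeq and 120666572 in GENCODE, so that position depends on the annotation. For these counts 1 window per gene was read, that of the start in the RefSeq table with the largest share of the gene's TPM. For Mpped2 that start held 35.1% and 36.2% of the TPM and for Stard10 33.4% and 42.5%, so for these 2 genes the counts do not describe the starts with most of the TPM. Over all 32851 promoters of the table, 12.4% hold it. At least 1 GGGCGG was found for 6 of the 7 genes, against 32.7% of all promoters, and only the Stard10 window lacked one. CCAAT was found for Cited4 alone (33.8% of all promoters). ACGTG was found for Cited2 and Stard10 (16.6% of all promoters). In Cited2 its matches overlap, since CACGTG reads the same on both strands. None of the 7 windows read held the GATA or the T-box motif, which 9.99% and 11.8% of all promoters hold. Another RefSeq window of Mpped2 (106694562 to 106694811), not read for these counts, held an AGATAA. The GC content was 58.0% for Cited1 and Cited4, 66.8% for Cited2 and 64.8% for Lbh, against a median of 52.4%. Cited2 had 26 CpG pairs and Lbh 21, while Cited1 had 13 and Cited4 had 10, against a median of 6. The windows read for Mpped2, Sphkap and Stard10 had 60.4%, 57.6% and 54.4% GC. They held 7, 5 and 3 CpG pairs, so Sphkap and Stard10 fell below that median. A match is a string of letters and was not tested as a binding site.

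In neither library did any of the 7 genes fall under 10 TPM, a level that 34.5% of 21474 protein-coding genes reached. Their mean levels ran from 15.4 TPM (Lbh) to 693 TPM (Cited1). The median of the 12118 detected protein-coding genes was 16.0 TPM, so Lbh stood close to the middle of the expressed genes and the other 6 above it. In percentiles of the detected genes, Cited1 stood at 98.8, Mpped2 at 88.9, Stard10 at 73.2, Cited4 at 68.2, Cited2 at 66.3, Sphkap at 56.3 and Lbh at 49.0.

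**Figure D1:**
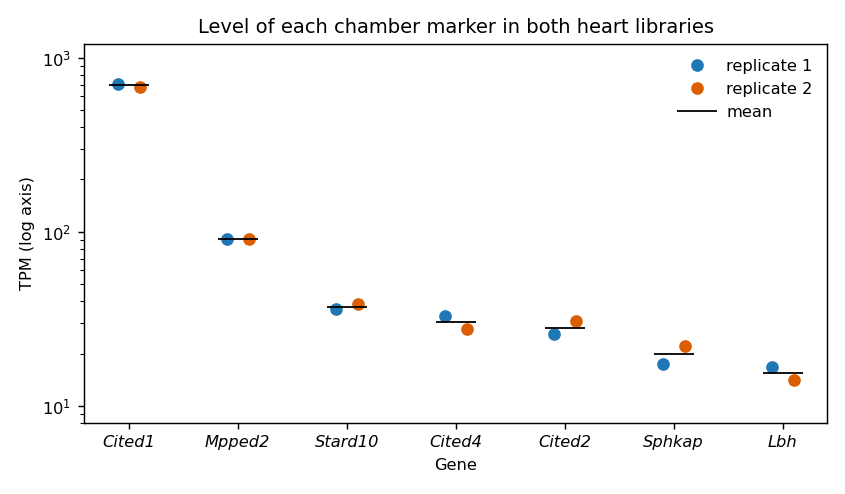
TPM (log axis) of each of the 7 genes in replicate 1 and replicate 2, with a horizontal line at the mean. Cited1 stands apart near 693 TPM and Mpped2 near 91.2 TPM, while the other 5 genes lie between 14.1 and 38.6 TPM.

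Cited1 was the most abundant of the 7 by a wide margin. It lies on chromosome X (102247381 to 102252181, minus strand, mm10), with 711 TPM in replicate 1 (16275 counts) and 675 TPM in replicate 2 (10896 counts), or 693 ± 25.6 (SD, n = 2). That placed it 140th among 21474 protein-coding genes. In replicate 1 it was at the level of Myh6, the alpha myosin heavy chain gene, which had 701 TPM, and in replicate 2 Myh6 was higher, at 997. Cited4 is a gene of 1 exon on chromosome 4 (120666572 to 120667820, plus strand), with 33.0 and 27.7 TPM (1084 and 642 counts), or 30.4 ± 3.76. Cited2 lies on chromosome 10 (17723218 to 17725674, plus strand), with 25.8 and 30.6 TPM (1374 and 1152 counts), or 28.2 ± 3.42. Cited4 was the higher of this pair in replicate 1 and Cited2 in replicate 2, so their ranges overlap.

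Of the summed TPM of the family, 752 ± 25.9, Cited1 held 92.4% in replicate 1 and 92.0% in replicate 2. Cited4 held 4.29% and 3.78%, and Cited2 held 3.35% and 4.17%. Cited1 was 22.9-fold above Cited4 and 24.7-fold above Cited2 in mean ratio. Both gaps exceed the difference between libraries that 95% of detected protein-coding genes stay under, which was 0.58 on the log2 scale. The 0.11 by which Cited4 exceeded Cited2 on that scale (0.36 in replicate 1 and -0.14 in replicate 2) does not. Cited2 has the longer transcript, and without correction for length the order turns, with 42.7 CPM for Cited2 and 28.4 for Cited4.

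Genes of proteins that the CITED family binds or, as with the hypoxia factors, competes with were far below Cited1 in RNA level. They were not all below Cited2 and Cited4. Crebbp had 17.4 and 15.7 TPM and Ep300 had 14.6 and 10.5. Together they came to 29.1 ± 4.03, close to Cited4 (30.4 ± 3.76) and Cited2 (28.2 ± 3.42). Of 15 partner genes, 10 were detected, with a median of 9.72 TPM over the list. Hif1a, the oxygen-regulated subunit that Cited2 displaces from p300, was the highest at 134 and 152 TPM, above both Cited2 and Cited4. Smad2, a mediator of activin and nodal signals, followed at 30.9 and 37.3, and Hif3a, a further hypoxia-factor subunit, at 22.5 and 27.1. None of the 13 partners with enough counts to be tested was called different between libraries at a fold of 2, where 4.69% of all genes tested were. Differences that were not called were present, with a log2 difference (replicate 2 minus replicate 1) of -0.75 for Ep300 and 0.56 for Arnt. On few counts, larger ones were -1.34 for Tfap2a (22 and 6 counts) and -0.91 for Tfap2b (60 and 23).

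The AP-2 transcription factors, for which Cited2 acts as a co-activator in neural crest and heart, were near the lower limit of detection. Their 5 genes summed to 1.46 TPM in replicate 1 and 0.62 in replicate 2. Tfap2b had 0.98 and 0.35, Tfap2c 0.22 and 0.15, and Tfap2a 0.26 and 0.10. Tfap2d had no count in either library. Genes of the left-right pathway, in which Cited2 takes part, included several under 1 TPM. Lefty1, an inhibitor of nodal signals, had 0.89 and 0.97 TPM, and Cfc1, a nodal co-receptor, had 0.37 and 0.74. Nodal and Lefty2 each had no count in replicate 1 and 0.05 TPM in replicate 2.

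Sphkap lies on chromosome 1 (83254139 to 83408200, minus strand). It had 17.5 TPM in replicate 1 (2562 counts) and 22.2 in replicate 2 (2449 counts), or 19.9 ± 3.34, the widest relative spread of the 7 (16.8% of the mean). Among 19 genes of PKA anchoring proteins, 16 of them detected with a median of 18.1 TPM over the list, it ranked 8th. It stood between Akap8 (25.7 ± 0.926) and Akap7 (18.3 ± 2.43). The range of Akap7, 16.6 to 20.0 TPM, overlaps that of Sphkap. The highest of the list were Ezr, the membrane-cytoskeleton linker ezrin (65.6 and 80.7 TPM), the centrosomal Akap9 (69.0 and 62.2), and Akap13 (41.7 and 30.9). Akap3, a sperm gene, had no count in either library.

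All 6 genes of PKA subunits were detected, and the type I regulatory subunit that Sphkap binds led them. Prkar1a had 319 and 386 TPM, against 22.1 and 24.9 for Prkar2a, 14.9 and 15.1 for Prkar2b, and 3.75 and 6.22 for Prkar1b. The catalytic subunits Prkaca (102 and 99.9) and Prkacb (32.2 and 39.5) summed to 137 ± 3.87 TPM, and the regulatory ones to 396 ± 50.9. Of the sphingosine-1-phosphate pathway, 8 of 11 genes were detected, with a median of 11.3 TPM over the list. Sphk1, the kinase after which Sphkap is named, was low at 2.21 and 1.52 TPM, and Sphk2 had 9.73 and 12.8. The highest were the receptor S1pr1 (46.5 and 55.4), Sgpl1, the lyase that degrades the lipid (23.9 and 30.9), and the receptor S1pr2 (17.1 and 18.8), and the lowest was the receptor S1pr5 (0.09 and 0.23).

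The reads of Sphkap were divided by the authors' model over 5 transcripts, most of them going to Sphkap-205, the full-length form of 11 exons and 8154 bases. It took 78.7% of the reads in replicate 1 and 67.8% in replicate 2, but 50.1% and 46.0% of the TPM, since short forms weigh more per read. Sphkap-204, annotated as a retained intron of 316 bases, was given 20.8 and 15.7 reads, yet 19.2% and 16.2% of the TPM. Also annotated as retained introns were Sphkap-203, with 13.9% and 8.87% of the TPM, and Sphkap-201, with 9.12% and 7.69%. The level and rank given above for the gene include these forms. The share that moved most was that of Sphkap-202, annotated as protein-coding, which rested on 223 reads in replicate 1 (posterior SD of the deposited model 62.0) and 551 in replicate 2 (75.4). In TPM it had 1.35 and 4.73, or 7.70% and 21.3% of the gene.

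Sphkap-202 was singled out after its values were seen. Its annotated start lies 170 bases inside exon 7 of Sphkap-205, and its first exon (chromosome 1, 83275618 to 83279165) is wholly contained in that exon. The 87 bases of its exon 3 (83265969 to 83266055) are in no exon of Sphkap-205 and lie in the last exon of Sphkap-201. Each of its 6 exons lies inside an exon of Sphkap-205, Sphkap-201 or both. The shift of 13.6 percentage points was larger than that of 94.3% of 12168 transcripts with 200 or more reads. Without Sphkap-202, the gene had 16.2 TPM in replicate 1 and 17.5 in replicate 2, a log2 difference of 0.15 in place of 0.39 with it. Whether the model's split or the transcript itself differed was not tested.

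Stard10 lies on chromosome 7 (101317086 to 101346626, plus strand), with 35.8 TPM in replicate 1 (1143 counts) and 38.6 in replicate 2 (900 counts), or 37.2 ± 1.97. Among 15 START-domain genes, 12 of them detected with a median of 7.23 TPM over the list, it was 3rd, and it was 5th when length was not corrected for. Above it stood Stard7, a carrier of phosphatidylcholine to mitochondria (74.3 and 76.6 TPM), and Dlc1, a GTPase-activating protein (71.1 and 57.8). The next below was the cholesterol-binding Stard3 (29.2 and 30.0), whose range does not overlap that of Stard10. Acot12, an acetyl-CoA thioesterase gene, had no count in either library.

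Stard10 was the most divided of the 7 genes over its transcripts. Its leading form, Stard10-203, held 26.1% and 32.8% of the TPM, a lower share than the leading form of most genes (median 71.0% over 5653 genes with several transcripts). Stard10-204 followed with 24.6% and 26.5%, then Stard10-201 with 19.9% and 16.2%, and Stard10-210 with 19.6% and 13.8%. By the deposited posterior means, Stard10-203 (21.79% and 26.01%) and Stard10-204 (21.76% and 24.86%) lay closer together, and in replicate 1 they were nearly level. By annotated start, the upstream group (101317086 to 101317119) held 33.4% and 42.5% of the TPM. The downstream group (101321113 to 101321971) held 65.5% and 57.5%. In TPM the downstream group was the larger in both libraries. In reads it had 675 against 462 in replicate 1, and in replicate 2 the groups were nearly level, at 451 and 449. The read numbers behind single forms are uncertain, with a posterior SD of 97.5 on the 341 reads of Stard10-203 in replicate 1. The antisense gene Gm20476, which overlaps Stard10, had no count in either library.

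Mpped2 was the 2nd most abundant of the 7 and the most even between libraries. It lies on chromosome 2 (106693269 to 106868356, plus strand), with 90.9 TPM in replicate 1 (4180 counts) and 91.5 in replicate 2 (3029 counts), or 91.2 ± 0.410. That SD is 0.45% of the mean, smaller than in all but 3.92% of 7675 genes with a mean of 10 TPM or more, where the median was 6.23%. With 2 libraries, such a small SD is itself poorly estimated. Mpped2 led its family of 4, of which 3 were detected. Cpped1, a phosphatase gene, had 25.4 and 25.7 TPM, Mppe1, which acts on lipid anchors of proteins in the secretory pathway, had 12.0 and 13.6, and Mpped1, the closest relative, had 0.19 and 0.08.

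Most of the Mpped2 TPM was assigned to 2 transcripts with different annotated starts. Mpped2-201, of 1217 bases, held 49.1% and 50.9% of the TPM and starts at 106695601. The longer form, of 2848 bases, held 35.1% and 36.2% and starts upstream at 106693269. Counted in reads the order is the other way round, with 34.0% and 34.6% for Mpped2-201 and 59.8% and 60.6% for the longer form. Each of these shares lay within 2 percentage points between libraries.

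Lbh lies on chromosome 17 (72918305 to 72941947, plus strand). It had 16.8 TPM in replicate 1 (1419 counts) and 14.1 in replicate 2 (843 counts), or 15.4 ± 1.88, the lowest level of the 7. Its relative Lbhd1 had 52.8 and 44.4 TPM on fewer counts (776 and 588), and Lbhd2 had 0.38 in replicate 1 and no count in replicate 2. Lbh was therefore 2nd of the family of 3 per length, and first in reads. All of its reads went to Lbh-201, the full-length form of 3 exons.

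Of 11 target, feedback or transcription factor genes of Wnt signalling, 8 were detected, with a median of 3.95 TPM over the list. The highest were the transcription factor genes Tcf7l2 (58.2 and 48.4 TPM), Lef1 (14.9 and 15.5) and Tcf7l1 (11.5 in both), which carry the signal in the nucleus. Lgr5, a receptor for R-spondins, was the lowest at 0.47 and 0.46. Sp5, a direct target of the pathway, was the 1 gene of the list called different between libraries, with 0.82 TPM in replicate 1 and 0.12 in replicate 2. That is 1 of 11 genes, where 4.69% of all genes tested were called, and nothing is read from it about the list.

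**Figure D2:**
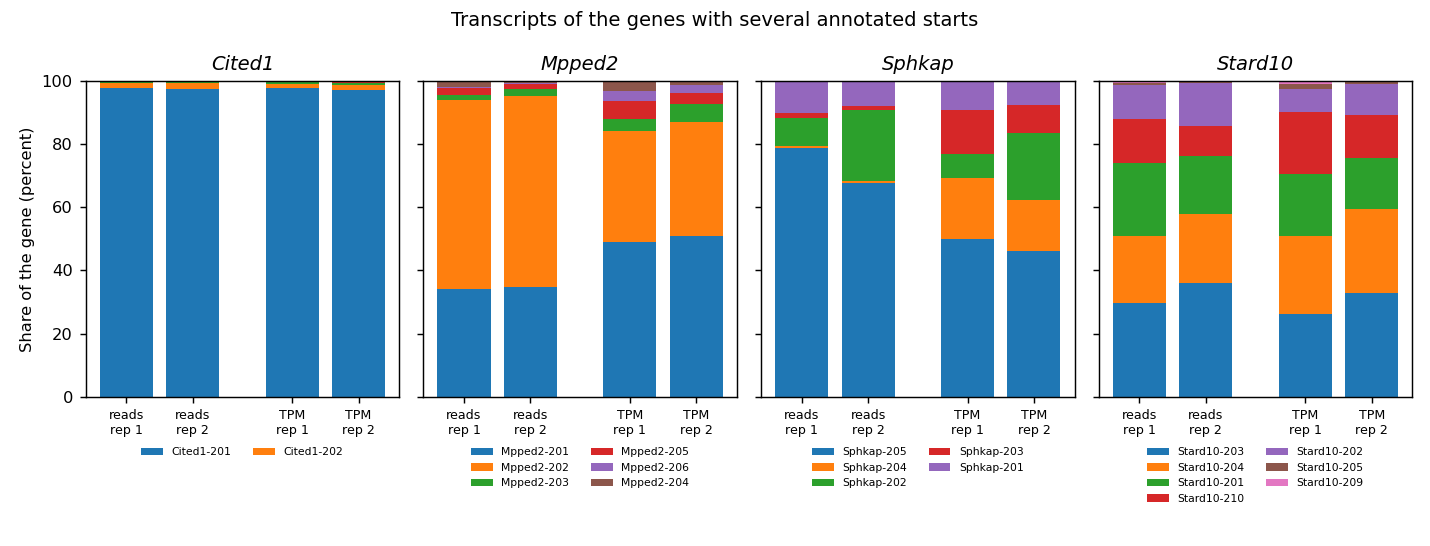
Share of each gene (percent) in its annotated transcripts, by reads (left pair of bars) and by TPM (right pair), in replicate 1 and replicate 2, for 4 genes with several annotated starts. Transcripts under 1% in every bar are drawn without a name. Cited1 rests almost wholly on Cited1-201, Mpped2 and Stard10 are divided, and in Sphkap the share of Sphkap-202 is larger in replicate 2.

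The 5 genes with more than 1 annotated transcript (Cited1, Lbh, Mpped2, Sphkap and Stard10) each had the same leading form by TPM in both libraries. Over 5653 genes with several transcripts and 10 TPM or more, 92.9% did.

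In order of mean level the genes ran Cited1, Mpped2, Stard10, Cited4, Cited2, Sphkap, Lbh. The first gap was 7.60-fold (2.97 and 2.88 on the log2 scale in replicate 1 and replicate 2) and the second, from Mpped2 to Stard10, was 2.45-fold (1.34 and 1.24). Both exceeded the limit of 0.58 in log2, with no overlap between libraries. The remaining neighbours did not differ beyond that limit. The log2 gap was 0.30 between Stard10 and Cited4, 0.11 between Cited4 and Cited2, 0.51 between Cited2 and Sphkap, and 0.36 between Sphkap and Lbh. The last of these rests on replicate 2, where it was 0.66, against 0.061 in replicate 1. The order below Stard10 is also one of abundance per length, and in CPM, where long transcripts count for more, Sphkap (85.7) stood above Cited2 (42.7), Lbh (37.3), Stard10 (34.4) and Cited4 (28.4).

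Between the libraries, 5 of the 7 genes differed at an adjusted p under 0.05 and none by as much as 2-fold. An exact two-sided binomial test on the rounded counts was used, with Benjamini-Hochberg adjustment over 16621 genes. It compares these 2 libraries and covers counting error alone. At any fold, 39.6% of all genes tested passed the same p, and with a fold of 2 or more 4.69% did, which is 551 genes higher in replicate 1 and 228 higher in replicate 2. Sphkap was 1.31-fold higher in replicate 2 (log2 difference 0.39, adjusted p = 5.01e-20 by the exact binomial test), and Cited2 was higher there by 0.20 (adjusted p = 0.00221). Cited4 and Lbh were each 1.23-fold higher in replicate 1 (log2 difference -0.30 for both), with an adjusted p of 1.40e-04 and 1.42e-05 in the exact test. Cited1 was higher in replicate 1 by a log2 difference of -0.12, with an adjusted p of 4.36e-11 in the exact test on its large counts. The differences of Stard10 (0.11, adjusted p = 0.170, exact test) and Mpped2 (-0.010, adjusted p = 0.857, exact test) did not pass.

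**Figure D3:**
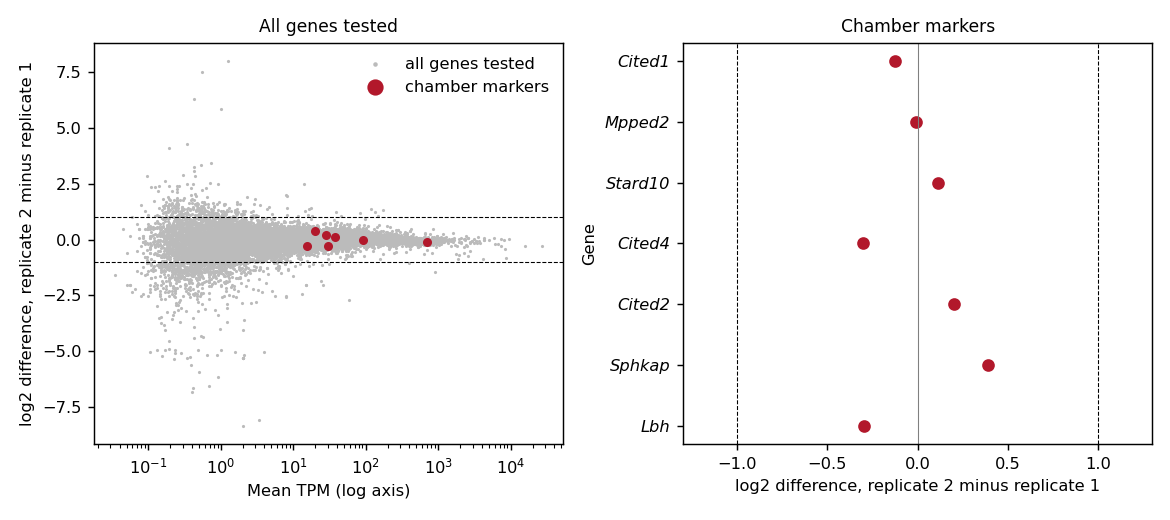
Left, log2 difference of replicate 2 minus replicate 1 against mean TPM (log axis) for all genes tested, with the 7 chamber genes in red; right, the same difference for each of the 7, with dashed lines at a fold of 2. All 7 lie between -0.30 and 0.39.

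Markers of other tissues also differed between the libraries. Of all genes tested, 4.69% were called, and 551 genes were called higher in replicate 1. Of 7 liver and yolk sac markers, 6 were detected and 6 were called higher in replicate 1. Apob was called but not detected, and Trf was detected but not called. The summed level of the 7 markers was 251 TPM in replicate 1 and 69.5 in replicate 2, from Apob (1.29 and 0.24) to Afp (102 and 16.3). The 6 foregut and lung epithelium markers summed to 68.1 and 57.8 TPM, from Foxa2 (0.53 and 0.12) to Krt18 (31.6 and 29.8), with 4 detected and 2 called higher in replicate 1. The 5 erythroid markers, all detected, summed to 45249 and 38055 TPM, with Hbb-y the highest (29322 and 24885). None was called at a fold of 2, but all 5 were lower in replicate 2, by log2 differences from -0.19 (Alas2) to -0.41 (Hba-x). The 5 neuronal markers summed to 27.1 and 28.3 TPM, with 4 detected and none called, and Tubb3 was the highest (10.2 and 10.1). The 5 skeletal muscle markers summed to 39.8 and 45.4 TPM, with 3 detected and none called, from Myf5 (0.41 and 0.65) to Tnni2 (32.2 and 37.1). Their part in the differences of the 7 genes was not tested.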

How the data were processed

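Total RNA of E11.5 hearts was measured in 2 libraries. The authors deposited a gene and a transcript table per library with expected counts (estimated reads, not normalized), TPM (per length, scaled to a fixed sum) and the percent of a gene's TPM in each transcript, per the file headers. The deposited README texts name assembly mm10 and annotation M4. For the aligner, the quantifier, their versions and the strand setting, the entry is "not given in the sources used here", and sense and antisense reads of overlapping genes may be mixed. Per the labels, 10 ng of RNA with a size range above 200 was used per library, with spike-ins and mirVana extraction.

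Symbols and coordinates came from GENCODE M21 (GRCm38) by gene identifier, and 42462 of 43346 mouse genes (98.0%) matched. The 97 spike-in and 26248 tRNA rows were left out of CPM and tests. Expected counts were rounded and compared between libraries by an exact binomial test with TMM sizes (edgeR 4.0.16, R 4.3.3) for genes with a summed count of 20 or more. To be called, a gene had to pass an adjusted p of 0.05 and differ at least 2-fold after 0.5 was added to its count in either library. Means, SDs and ranks were computed in Python 3.11.15 (pandas 2.3.3, scipy 1.17.1). A chi-square of the counts came to 24.8 per gene over 16621 genes, so the libraries are not copies of 1 library.

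The 7 genes and all gene lists were chosen with earlier results of these data known. Every one of the 7 is described. Of each family or pathway list the 3 highest genes and the lowest are named, every gene in lists of 6 or fewer, and always the direct partners of the CITED proteins and Sphkap. Of each list of markers for another cell type the lowest and highest are named. A few genes that these rules would name are not reported here. Starts within 1000 bases of each other form 1 start group. Alternatives tried were posterior mean TPM and posterior mean transcript shares, TPM without globin and mitochondrial genes, CPM, 1 added to each TPM, DESeq2 1.42.0 size factors, total counts, no filter on low counts, a fold of 1.5, detection at 0.5 or 5 TPM, and each library alone. Protein sequences were not used here.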

Additional observations from a re-analysis of the deposited data

How the results depend on the processing

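Levels, order, ranks, calls and shares were recomputed. None of the 7 genes was called between libraries, so no call of theirs could change sign. In the order, the gaps from Cited1 to Mpped2 and from Mpped2 to Stard10 kept their direction under every alternative. Their sizes depended on the correction for length, with log2 ratios of 1.90 and 1.81 in CPM, in place of 2.93 and 1.29. Gaps under the limit of 0.58 did not all do so, and without replicate 1 the log2 ratio of Cited4 to Cited2 was -0.14. TPM rescaled without globin and mitochondrial genes raised every level in like proportion, to 947 for Cited1, 125 for Mpped2, 50.9 for Stard10, 41.5 for Cited4, 38.5 for Cited2, 27.1 for Sphkap and 21.1 for Lbh. The posterior mean TPM of Mpped2 was 90.4, outside its small SD. In CPM, without correction for length, the log2 ratio turned to -0.59 for Cited4 to Cited2 and to -0.99 for Cited2 to Sphkap, and it grew to 1.20 for Sphkap to Lbh. In single libraries the Sphkap to Lbh ratio ran from 0.061 to 0.66. At a fold of 1.5, 1496 genes were called between libraries in place of 779. Detection at 0.5 TPM gave 2 laterality genes in place of 1. At 5 TPM it gave 7 phosphodiesterase genes in place of 14 and 5 Wnt genes in place of 8. Ranks by CPM moved Stard10 to 5th, Cited4 to 3rd, Cited2 to 2nd, Sphkap to 6th and Lbh to 1st in their families. By posterior means, the mean share of the leading transcript was 23.9% for Stard10 in place of 29.45%, 48.35% for Mpped2 in place of 49.96%, and 98.8% for Lbh in place of 100%. No paired analysis was possible because there is a single group. With 1 group, the SD rests on 2 values, and what moves with the chambers, the stage or the strain was not measured.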

Other observations

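Cyclic nucleotides are split by phosphodiesterases, and 14 of 17 measured genes of this kind were detected beside Mpped2 and the PKA genes, with a median of 4.32 TPM over the list. The highest were Pde4d (20.4 and 17.5 TPM in replicate 1 and replicate 2) and Pde4b (17.4 and 15.9), both specific for cyclic AMP, and Pde1a (15.5 and 17.4), which calcium and calmodulin activate. Pde4c was the lowest, at 0.01 and 0. Pde2a, the 18th gene of the list, was not matched by symbol and is not analysed here. Mpped2, at 90.9 and 91.5, stood above each of the 17 measured. None of the 15 tested was called different between libraries at a fold of 2, where 4.69% of all genes tested were.

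Genes of the chamber layers and the other heart tissues were present beside the 7. All 5 trabecular markers were detected, from Irx3, a homeobox gene of the conduction system (6.13 and 6.63 TPM), to Nppa, the atrial natriuretic peptide gene (4043 and 4415). Gja5, the gap junction gene of trabeculae and arteries, had 25.2 and 48.3 TPM. The 4 ventricular markers ranged from Hey2 (21.2 and 16.7) to Myl2 (4991 and 5063), and the 5 atrial ones from Nr2f1 (7.28 and 7.26) to Myl7 (5518 and 6056). Endocardial markers ran from Npr3 (9.23 and 7.93) to Emcn (48.2 and 54.3), those of cushion mesenchyme from Twist1 (9.70 and 9.62) to Col3a1 (241 and 311), and epicardial ones from Tbx18 (12.3 and 11.8) to Upk3b (76.0 in both). In whole hearts these levels do not assign any of the 7 genes to a layer.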
